A study of Mus musculus with 12 samples.

Results

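The genes of the TGF-beta, BMP and Nodal pathway were examined in a map of open chromatin from mouse embryonic stem cells (mESCs) and mouse embryonic fibroblasts (MEFs). The set held 49 genes, taken by symbol: 21 ligands, 11 receptors and co-receptors, 8 Smad signal transducers, 4 Id genes and 5 secreted antagonists. A peak of accessible DNA was assigned to a gene when it touched the gene's GENCODE M21 body (build GRCm38) extended by 5 kb on both sides. By this rule 280 of 91354 peaks of the BGI peak set and 273 of 87027 peaks of the Illumina peak set belonged to the pathway, every one of the 49 genes had at least 1 peak on both platforms, and no peak belonged to 2 members. Chromatin accessibility had been profiled by OMNI-ATAC-seq, in which Tn5 transposase cuts accessible DNA and tags it with adapters. Both cell types had a C57/Bl6 background. The MEFs were sorted by FACS as THY1+ cells from fibroblast cultures, and the mESCs as THY1-/SSEA1+/EPCAM+ cells. From 3 biological replicate samples of each cell type (MEF 1, 2 and 4; mESC 1, 3 and 5) 6 libraries were made, and each library was read both on BGI's DNBSEQ-G400, which sequences DNA nanoballs, and on Illumina's HiSeqX10, giving 12 samples in 4 groups of 3. The platforms therefore shared their libraries and are given side by side, never pooled as replicates.

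Ligands of this family bind pairs of type I and type II serine/threonine kinase receptors, which phosphorylate receptor-regulated Smads. SMAD2 and SMAD3 carry the TGF-beta, activin and Nodal branch, SMAD1, SMAD5 and SMAD9 carry the BMP branch, and both join SMAD4 before they enter the nucleus. Nodal signalling with its co-receptor TDGF1 and its inhibitors of the Lefty family acts in early embryonic cells, BMP signalling is known to maintain mESCs through the Id genes, and TGF-beta signalling is a main driver of matrix production in fibroblasts.

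Each sample had between 15860985 and 21662775 reads in the peaks of its platform, and the median count of a member peak lay between 124.5 and 220 reads, lower in all mESC samples (up to 135) than in all MEF samples (188 or more). Accessibility is given as CPM, read counts scaled to the reads in the peak set. Differences are log2 fold changes of mESCs over MEFs from edgeR, so that a positive value means more open in mESCs, with the standard error (SE) of the fit. A peak or gene was called when its Benjamini-Hochberg adjusted p, taken over all peaks or all protein-coding genes tested, was under 0.05. The labelled cell types were checked on promoter peaks of marker genes: on both platforms all 8 mESC markers (Pou5f1, Nanog, Esrrb and others) were more open in mESCs and 7 of 8 MEF markers were more open in MEFs, with the exception of Pdgfra. Of the markers of other cells, Ptprc and Spi1 (macrophage), Cdh5 (endothelium) and Myog (skeletal muscle) had no promoter peak on either platform. The summed BGI CPM of the markers with a promoter peak was 50.7 to 60.02 in mESCs and 24.3 to 28.5 in MEFs for macrophages (2 of 4 genes with a peak, nearly all of the mESC sum from Cd68), 27.6 to 32.2 and 28.7 to 30.9 for endothelium (3 of 4), 59.8 to 65.9 and 53.0 to 60.6 for extra-embryonic endoderm (4 of 4) and 9.69 to 9.87 and 2.54 to 3.39 for skeletal muscle (1 of 2). The 2 macrophage markers with a peak went opposite ways on BGI, both called. Cd68 was at 2.21 (53.8 CPM in mESCs and 11.1 in MEFs) and Csf1r at -2.97 (2.13 and 15.9). The endoderm markers went opposite ways on BGI: Sox17 was at 2.50 (18.6 CPM in mESCs and 3.14 in MEFs) and Gata4 at 0.57, Gata6 at -0.64, all called, and Sox7 at -0.32 without a call. What part such other cells had in the results was not tested. In bulk samples such as these, fewer cells with an open site and less opening per cell cannot be told apart.

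The DNA of 8 member peaks that the results below turn on is shown first, 4 that were more open in mESCs and 4 that were more open in MEFs. Each line gives 150 bases of the plus strand of GRCm38, read from RefSeq's sequence of that build, from the part of the BGI peak that holds no annotated exon and the most matches to the motifs searched. Capitals mark matches on either strand to CAGACA or GTCTAGAC (SMAD3/4), GGCGCC (SMAD1/5), AATNCACA (FOXH1), ATGCAAAT (octamer), CAAGGTCA (ESRRB), TGANTCA (AP-1), GGAATG (TEAD) or TGTGGT (RUNX). The 4 stretches of mESC-open peaks lie upstream of Nodal (chr10:61416114-61416263), at the upstream promoter peak of Tdgf1 (chr9:110947251-110947400), in an intron of Bmpr1b (chr3:141849395-141849544) and just upstream of Lefty1 (chr1:180934733-180934882). The 4 of MEF-open peaks lie in an intron of Tgfbr3 (chr5:107213422-107213571), downstream of Nog (chr11:89297624-89297773), at the promoter of Tgfbr2 (chr9:116175361-116175510) and at the promoter of Id1 (chr2:152736101-152736250).
Nodal: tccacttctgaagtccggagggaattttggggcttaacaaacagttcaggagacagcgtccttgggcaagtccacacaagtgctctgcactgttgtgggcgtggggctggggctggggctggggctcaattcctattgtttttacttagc
Tdgf1: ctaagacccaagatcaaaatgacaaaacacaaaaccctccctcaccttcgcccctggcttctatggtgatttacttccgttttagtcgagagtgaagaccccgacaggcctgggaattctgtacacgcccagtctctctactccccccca
Bmpr1b: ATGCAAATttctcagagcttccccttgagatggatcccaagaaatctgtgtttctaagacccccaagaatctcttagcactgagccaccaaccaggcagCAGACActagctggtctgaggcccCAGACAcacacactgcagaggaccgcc
Lefty1: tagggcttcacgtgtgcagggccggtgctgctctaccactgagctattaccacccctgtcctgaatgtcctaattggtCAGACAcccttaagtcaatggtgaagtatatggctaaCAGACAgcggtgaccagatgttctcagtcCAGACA
Tgfbr3: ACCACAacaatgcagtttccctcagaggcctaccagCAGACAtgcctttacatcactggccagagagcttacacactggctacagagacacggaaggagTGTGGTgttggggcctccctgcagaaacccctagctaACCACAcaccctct
Nog: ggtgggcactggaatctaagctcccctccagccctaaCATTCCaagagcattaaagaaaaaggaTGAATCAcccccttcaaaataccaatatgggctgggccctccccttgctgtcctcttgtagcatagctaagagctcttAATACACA
Tgfbr2: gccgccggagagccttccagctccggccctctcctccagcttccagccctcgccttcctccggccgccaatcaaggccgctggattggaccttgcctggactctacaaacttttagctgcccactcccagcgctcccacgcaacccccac
Id1: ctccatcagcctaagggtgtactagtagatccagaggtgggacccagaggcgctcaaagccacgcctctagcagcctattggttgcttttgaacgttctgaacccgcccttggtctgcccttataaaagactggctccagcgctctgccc
The Bmpr1b stretch held 1 octamer and 2 CAGACA matches, the Lefty1 stretch 3 CAGACA matches, the Tgfbr3 stretch 3 matches to TGTGGT and 1 to CAGACA, and the Nog stretch 1 match each to AATNCACA, GGAATG and TGANTCA. The Nodal, Tdgf1, Tgfbr2 and Id1 stretches held none, which says only that these letters are not in these 150 bases.

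The pathway as a whole was about as often different between the cell types as the rest of the genome, and it leaned towards MEFs. On BGI 240 of 280 member peaks were called (85.7%, against 84.1% of all peaks). More open in mESCs were 81 (28.9%, against 40.9% of all peaks), and more open in MEFs were 159 (56.8%, against 43.2% of all peaks). The median log2 fold change of the member peaks was -0.47, and that of all peaks was -0.08. On Illumina 229 of 273 were called (83.9%, against 84.5%), of which 72 were more open in mESCs (26.4%, against 42.1%) and 157 in MEFs (57.5%, against 42.4%), with a median of -0.51 (all peaks -0.03). No test of the list as a whole was made.

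Receptors, Smads and Id genes had a smaller share of peaks more open in mESCs and a larger share more open in MEFs than all peaks, on both platforms. Of 91 ligand peaks on BGI, 38 were more open in mESCs (41.8%, near the 40.9% of all peaks) and 31 in MEFs (34.1%, against 43.2%), with a median log2 fold change of 0.15. On Illumina the ligand shares were 37.4% and 39.6%, both below those of all peaks (42.1% and 42.4%). Of 76 receptor peaks, 20 were more open in mESCs and 50 in MEFs (26.3% and 65.8%, median -1.19), and of 67 Smad peaks 13 and 48 (19.4% and 71.6%, median -0.89). Genes with many peaks weigh most in these values. Tgfbr3 held 18 of the BGI receptor peaks (15 more open in MEFs, 2 in mESCs) and Tgfbr2 7, all more open in MEFs. Smad3, Smad6 and Smad7 held 18, 18 and 17 of the BGI Smad peaks. Counted by gene on BGI, 7 of 11 receptor genes were more open in MEFs, 1 in mESCs and 3 were not called. Of 24 Id peaks only 2 were more open in mESCs and 18 in MEFs (8.33% and 75%, median -0.88), and of 22 antagonist peaks 8 and 12 (36.4% and 54.5%, median -0.35). On Illumina the medians of ligands, receptors, Smads, Id genes and antagonists were 0.07, -0.95, -0.75, -0.85 and -0.34. The Illumina ligand median was -0.00027 without mESC replicate 3, so its sign rested on that library. The receptor median also moved with the place of the peaks: it was -0.30 over the 22 receptor peaks within 1 kb of a transcription start site (TSS) and -1.85 over the 54 others, where 38 were more open in MEFs (70.4%) and 14 in mESCs (25.9%). Peaks of all coding genes had medians of -0.14 within 1 kb of a start site and 0.18 outside, where 41.9% were more open in MEFs and 47.0% in mESCs, and their median absolute log2 fold change was also smaller near start sites (0.543 against 2.33).

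**Figure D1:**
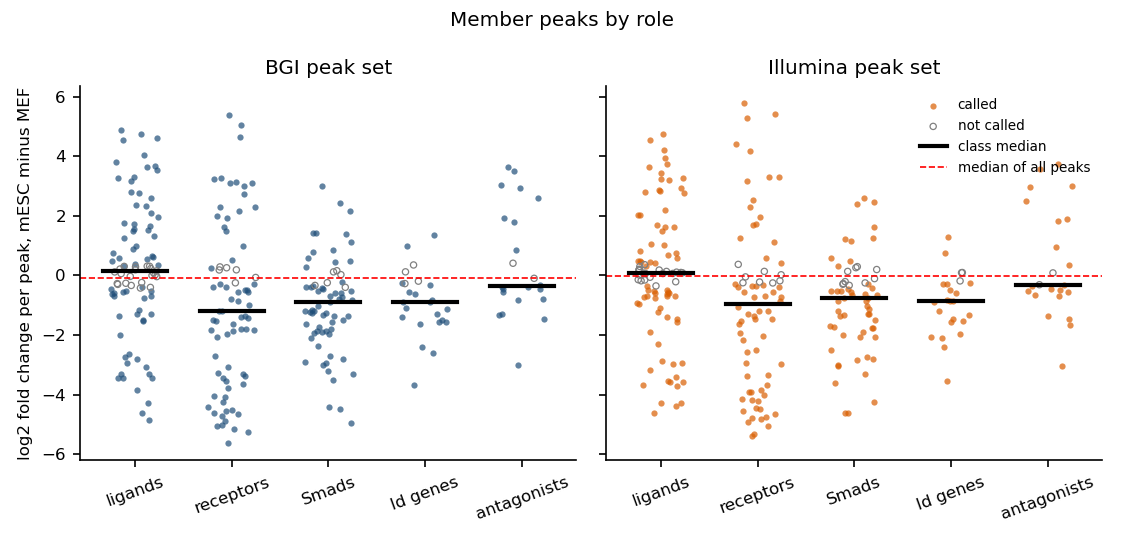
Log2 fold change (mESC over MEF) of every member peak by role class on the BGI and Illumina peak sets, 1 point per peak, with the class median as a bar and the median of all peaks as a dashed line. Receptor, Smad and Id peaks lie mostly below 0 (BGI medians -1.19, -0.89 and -0.88), whereas ligand peaks spread to both sides (median 0.15). Genes with many peaks weigh more in a class than genes with few.

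Summed over all peaks of a gene, the lean was the same. On BGI 38 of 49 genes were called (75.8% of all protein-coding genes with a peak were), 12 of them more open in mESCs (background 35.4%) and 26 more open in MEFs (background 40.4%). On Illumina 37 were called (background 75.8%), 10 more open in mESCs (background 35.1%) and 27 in MEFs (background 40.7%). The call was the same on both platforms for 46 genes. The other 3 were Gdf7 and Gdf9, called on BGI only, and Gdf11, called on Illumina only. Every one of the 7 Smads called and all 4 Id genes were more open in MEFs on both platforms. On BGI 25 of the 49 genes (51.0%, against 44.9% of all protein-coding genes with a peak) held both peaks more open in mESCs and peaks more open in MEFs. The members had a median of 4 peaks a gene and all genes 3. Of the others 7 held only the first kind, 15 only the second and 2, Bmp2 and Bmp3, neither.

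**Figure D2:**
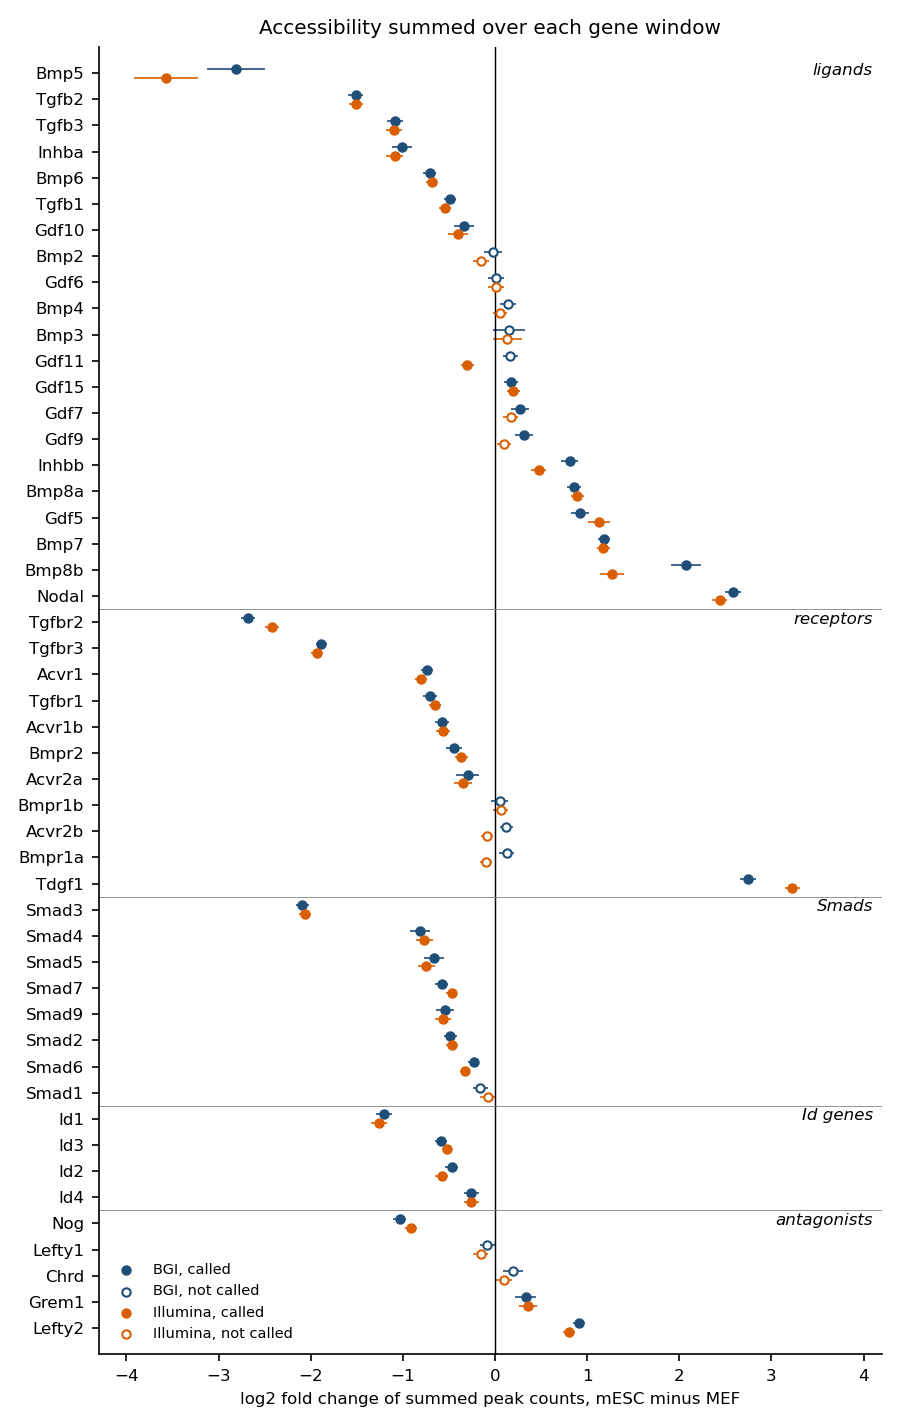
Log2 fold change (mESC over MEF) of the summed peaks of each of the 49 genes on both platforms, with bars of 1 SE, ordered by role, open points being genes not called. Tdgf1 and Nodal stand highest (BGI 2.75 and 2.58), and Bmp5, Tgfbr2, Smad3 and Tgfbr3 lowest (-2.81, -2.68, -2.09 and -1.88).

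The TGF-beta ligand genes were more open in MEFs. Tgfb2 summed to 78.2, 76.5 and 79.5 CPM in MEFs 1, 2 and 4 and to 29.6, 29.0 and 27.3 CPM in mESCs 1, 3 and 5 on BGI. The groups lay far apart, and the log2 fold change was -1.51 (SE 0.078, edgeR Benjamini-Hochberg adjusted p 3.57e-16, n = 3 and 3) on BGI and -1.51 on Illumina. All 6 of its peaks were more open in MEFs, from -0.52 to -4.28 on the log2 scale, the last an intronic peak with 14.2 to 15.1 CPM in MEFs and 0.630 to 0.946 CPM in mESCs. Tgfb3 was 71.6 ± 7.79 CPM in MEFs and 35.3 ± 2.08 CPM in mESCs (SD, n = 3), a log2 fold change of -1.08 on BGI and -1.10 on Illumina, with all 4 BGI peaks more open in MEFs, 3 of them also in the window of Ift43, as were all 3 on Illumina. Tgfb1 differed less, with -0.49 on BGI and -0.54 on Illumina. Its 3 promoter peaks were more open in MEFs, the strongest at -1.48, but they also lie in the window of the neighbouring gene B9d2. An intronic and an exonic peak within Tgfb1 were more open in mESCs (3.66 and 2.08), and over the peaks that lie in no other coding gene's window Tgfb1 turned to 2.77 on BGI and 2.51 on Illumina.

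The activin subunit genes went opposite ways. Inhba, which codes for the activin A subunit, was 36.5 ± 3.59 CPM in MEFs and 19.0 ± 1.47 CPM in mESCs, a log2 fold change of -1.01 on BGI and -1.09 on Illumina. Its largest difference was a peak centred at -69 bases from an annotated start site, with 6.32, 6.36 and 4.98 CPM in MEFs and 0.189, 0.355 and 0.186 CPM in mESCs (-4.62, SE 0.381). Inhbb, which codes for the activin B subunit, was more open in mESCs, at 0.81 on BGI and 0.47 on Illumina. Its promoter peak did not pass the test on BGI (-0.24) and was -0.36, more open in MEFs, on Illumina, where it lost its call (-0.23) when libraries were scaled to the depth they had been down-sampled to, in place of their reads in peaks. The 3 Inhbb peaks outside the promoter were all more open in mESCs on BGI (1.26 to 2.58), and over peaks within 1 kb of a start site the gene was at -0.11 on BGI and -0.17 on Illumina.

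Nodal, the ligand that patterns the early embryo, was the ligand gene with the largest positive difference on both platforms. It summed to 14.9, 16.2 and 18.8 CPM in MEFs and to 112, 99.9 and 99.7 CPM in mESCs on BGI. No mESC library came near a MEF library, and the log2 fold change was 2.58 (SE 0.0874, edgeR Benjamini-Hochberg adjusted p 3.80e-20, n = 3 and 3) and 2.44 on Illumina. All 5 Nodal peaks were more open in mESCs on both platforms. The largest was the upstream peak whose sequence is shown above, centred at -1784 bases from the start site, with 1.38, 1.49 and 1.99 CPM in MEFs and 46.5, 37.3 and 41.3 CPM in mESCs. Its log2 fold change was 4.62 (SE 0.158) on BGI and 4.56 on Illumina, against 1.57 at the promoter peak. An exonic peak near the end of the gene (2.79), which also lies in the window of Eif4ebp2, was more open in mESCs as well.

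Among the 8 BMP ligand genes, 20 of 39 BGI peaks were more open in mESCs and 6 in MEFs (51.3% and 15.4%, against 40.9% and 43.2% of all peaks), with a median log2 fold change of 0.36. On Illumina 17 of 40 were more open in mESCs (42.5%, near the 42.1% of all peaks) and 9 in MEFs (22.5%), with a median of 0.20. Bmp7, a ligand of kidney and limb development, summed to 60.4, 60.8 and 72.8 CPM in MEFs and to 157, 145 and 159 CPM in mESCs. Its log2 fold change was 1.18 on both platforms. The promoter peak differed little (0.36 on BGI, and not called without mESC replicate 1), and the difference lay in 8 intronic peaks between 17.5 and 69.1 kb into the gene, all more open in mESCs. The farthest of them had 0.692, 0.696 and 0.996 CPM in MEFs and 24.6, 23.7 and 25.6 CPM in mESCs (4.88, SE 0.19). A peak 4.98 kb into Bmp7 was more open in MEFs (-1.29).

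Bmp8a and Bmp8b, a pair of neighbouring paralogs with roles in germ cells, were both more open in mESCs. Bmp8b was 5.06 ± 0.504 CPM in MEFs and 22.4 ± 4.89 CPM in mESCs (2.07 on BGI, 1.27 on Illumina), and its promoter peak was at 2.35 on BGI. Bmp8a was at 0.86 on BGI and 0.89 on Illumina, with intronic peaks at 4.73 and 3.80. Only uniquely mapped reads were counted by the authors, so stretches that are alike in the pair could carry few counts, which was not tested. Bmp5 had a single peak and none at its promoter: 8.68, 6.86 and 4.18 CPM in MEFs and 1.26, 0.828 and 0.870 CPM in mESCs, a log2 fold change of -2.81 on BGI and -3.57 on Illumina. Bmp6 was lower in mESCs over the gene (-0.71 and -0.68) through 4 intronic peaks between -2.73 and -4.85, whereas its promoter peak was more open in mESCs (0.50 and 0.49). Over peaks within 1 kb of a start site Bmp6 was therefore at 0.46 on BGI and 0.44 on Illumina. Bmp2, Bmp3 and Bmp4 were not called over the gene, at -0.02, 0.15 and 0.14 on BGI. With a 20 kb window Bmp3 was called more open in MEFs (-0.97 on BGI and -0.81 on Illumina). A single peak of Bmp4, centred at -1227 bases from a start site, was more open in mESCs (3.18).

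Of 22 BGI peaks of the GDF ligands 8 were more open in mESCs and 8 in MEFs (36.4% each, near the 40.9% and 43.2% of all peaks). Gdf5, a joint morphogen, had the largest difference over the gene (0.93 and 1.13), and it rested on 1 upstream peak with 4.03 that also lies in the window of another gene. A second upstream peak was more open in MEFs (-3.29), and over the peaks in no other window Gdf5 was at -3.29 on BGI and -3.42 on Illumina. Gdf11 was not called on BGI (0.17) and was lower in mESCs on Illumina (-0.30). Its intronic peak was at 2.76 on both platforms. An upstream peak of Gdf15 was at -3.44 on BGI and -3.18 on Illumina, and a downstream peak of Gdf7 at -3.42 and -3.66. Summed over the gene, Gdf6, Gdf7, Gdf9, Gdf10 and Gdf15 lay between -0.33 and 0.31 on BGI. The BGI calls of Gdf9, Gdf10 and Gdf15 did not hold without every library: Gdf9 lost its call without MEF replicate 2, Gdf10 without MEF replicate 4 or mESC replicate 1, and Gdf15 without MEF replicate 1, MEF replicate 4 or mESC replicate 1. Gdf10 on BGI also lost its call under scaling to the down-sampled depth (-0.19). With a 20 kb window Gdf10 turned to 0.19 on BGI, without a call, and to 0.25 on Illumina. Gdf9 was then at -0.09 on BGI, without a call, and at -0.18 on Illumina. Over peaks within 1 kb of a start site Gdf11 was at -0.56 on BGI. On Illumina Gdf15 lost its call without MEF replicate 2 (0.15) or mESC replicate 5 (0.17).

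Among the receptor genes more open in MEFs, Tgfbr2 and Tgfbr3 differed most on both platforms. Tgfbr2, the type II receptor that binds TGF-beta, summed to 130, 124 and 129 CPM in MEFs and to 22.1, 19.5 and 21.0 CPM in mESCs on BGI. The groups did not overlap, and the log2 fold change was -2.68 (SE 0.0765, edgeR Benjamini-Hochberg adjusted p 1.12e-21, n = 3 and 3) and -2.42 on Illumina. All 7 Tgfbr2 peaks were more open in MEFs on both platforms, from -1.37 to -5.002 on BGI. The promoter peak, part of which is shown above, had 38.3, 36.5 and 38.0 CPM in MEFs and 14.6, 10.9 and 12.6 CPM in mESCs (-1.63), and the 5 peaks outside the promoter differed more, from -3.27 to -5.002.

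Tgfbr3, which codes for the TGF-beta co-receptor betaglycan, summed to 230, 225 and 235 CPM in MEFs and to 64.8, 62.9 and 68.5 CPM in mESCs. Its log2 fold change was -1.88 on BGI and -1.93 on Illumina. Of its 18 BGI peaks 15 were more open in MEFs and 2, intronic at 69.5 and 72.3 kb into the gene, were more open in mESCs (2.30 and 1.49). The largest MEF-open peak, 76.1 kb into the gene, had 20.1, 27.0 and 23.0 CPM in MEFs and 0.820, 0.650 and 0.435 CPM in mESCs (-5.25, SE 0.228). Tgfbr1, the type I receptor for TGF-beta, differed less (-0.70 and -0.65), and its promoter peak was at -0.77.

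Tdgf1, the Nodal co-receptor also known as Cripto, was the receptor gene that went furthest the other way. It summed to 12.6, 13.1 and 14.6 CPM in MEFs and to 90.0, 97.8 and 95.2 CPM in mESCs, a log2 fold change of 2.75 on BGI and 3.23 on Illumina. The most open peak was the one shown above, centred at -1167 bases from the nearest start site, with 0.554, 0.944 and 2.09 CPM in MEFs and 37.4, 46.3 and 39.4 CPM in mESCs (5.04, SE 0.241). This peak and the neighbouring one (3.11) also lie in the window of Lrrc2. A peak at an internal start site within the gene was not called on BGI (0.19) and was 0.41 at its Illumina match. It was the one BGI peak left without the 5 kb extension, where Tdgf1 was at 0.19 and not called.

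Over the gene the activin and BMP receptors lay between -0.74 and 0.13 on BGI. Acvr1 and Acvr1b, type I receptors for BMPs and for activin and Nodal, were more open in MEFs (-0.74 and -0.57 on BGI), but Acvr1 held 4 peaks more open in mESCs beside 9 more open in MEFs. An intronic Acvr1 peak had 6.60, 8.60 and 8.86 CPM in MEFs and 0, 0.118 and 0.373 CPM in mESCs, a fitted log2 fold change of -5.62 that rests on very few mESC reads. An Acvr1b intronic peak was at -5.15. Bmpr1a and Bmpr1b, the BMP type I receptors, were not called over the gene (0.13 and 0.05 on BGI, -0.10 and 0.06 on Illumina) while they held some of the widest differences of the pathway. On Illumina Bmpr1a was called more open in mESCs (0.26) without the 5 kb extension. In Bmpr1b an intronic peak had 0.60, 0.249 and 1.29 CPM in MEFs and 30.6, 30.7 and 31.9 CPM in mESCs (5.37, SE 0.255), the largest positive value of all member peaks on BGI, while 5 other peaks were more open in MEFs down to -4.89. In Bmpr1a a peak at an internal start site was at 4.64, with 0.508, 1.19 and 0.797 CPM in MEFs and 20.2, 22.3 and 22.6 CPM in mESCs, whereas the peak at the first promoter was more open in MEFs (-0.56). Of the type II receptors, Bmpr2 was more open in MEFs (-0.44) and Acvr2b was not called (0.12). Acvr2a was at -0.30 (-0.35 on Illumina). Its BGI call ended without MEF replicate 1 (-0.27), MEF replicate 4 (-0.27), mESC replicate 3 (-0.24) or mESC replicate 5 (-0.27), and under scaling to the down-sampled depth on both platforms (-0.15 and -0.22).

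**Figure D3:**
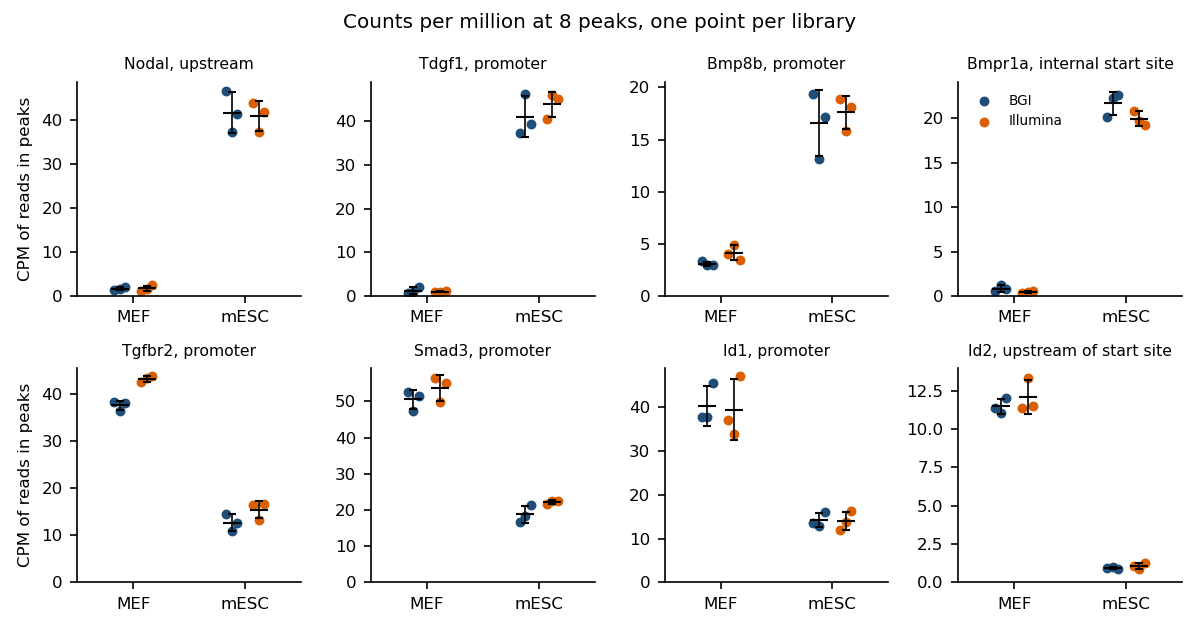
CPM of 8 member peaks in each library on both platforms, with the mean and SD of 3 libraries. The peaks of Nodal, Tdgf1, Bmp8b and the internal start site of Bmpr1a are high in every mESC library, those of Tgfbr2, Smad3, Id1 and the site upstream of Id2 in every MEF library, and no groups overlap.

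Of the 8 Smad genes none was more open in mESCs over its peaks. Smad3, which transmits TGF-beta, activin and Nodal signals, had the largest difference: 292, 292 and 252 CPM in MEFs and 69.9, 63.4 and 72.9 CPM in mESCs on BGI. The log2 fold change was -2.09 (SE 0.0713, edgeR Benjamini-Hochberg adjusted p 4.43e-20, n = 3 and 3), and -2.06 on Illumina. Of 18 peaks 15 were more open in MEFs and 1, upstream, was slightly more open in mESCs (0.46). An intronic peak 55.2 kb into the gene had 36.4, 36.4 and 30.4 CPM in MEFs and 1.39, 2.13 and 1.24 CPM in mESCs (-4.49), and the promoter peak was at -1.49. Its partner Smad2 differed much less (-0.48 and -0.47), with all 3 BGI peaks between -0.41 and -0.59.

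The BMP-branch Smads and the common Smad followed with smaller values. Smad4, which every branch uses, was at -0.81 on BGI and -0.77 on Illumina, Smad5 at -0.66 and -0.74, and Smad9 at -0.54 and -0.57. Smad9's promoter peaks also lie in the window of Alg5, and the single peak outside it was more open in mESCs (1.11 and 1.21). Smad1 was not called on either platform (-0.16 and -0.08), its promoter peak was at 0.03, and a peak 511 bases downstream of a start site was more open in mESCs (2.17).

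The inhibitory Smads, which block the receptors, were among the genes with the most peaks and held both kinds. Smad6 summed to 227, 239 and 268 CPM in MEFs and to 218, 223 and 214 CPM in mESCs, groups that nearly touch. Its log2 fold change was -0.23 on BGI and -0.33 on Illumina, and the BGI value fell to -0.09 and lost its call under scaling to the down-sampled depth. Of its 18 BGI peaks 10 were more open in MEFs and 6 in mESCs, and they were interleaved along the gene: a peak 41.6 kb in had 28.6, 29.5 and 30.9 CPM in MEFs and 3.03, 2.84 and 2.36 CPM in mESCs (-3.50), and the next, 46.0 kb in, had 4.29, 3.78 and 3.34 CPM in MEFs and 20.5, 21.6 and 21.9 CPM in mESCs (2.41). Smad7 was at -0.58 on BGI and -0.47 on Illumina with 12 of 17 BGI peaks more open in MEFs, yet its strongest promoter peak was more open in mESCs (0.28 and 0.31), and over peaks within 1 kb of a start site Smad7 was at 0.10 on both platforms.

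**Figure D4:**
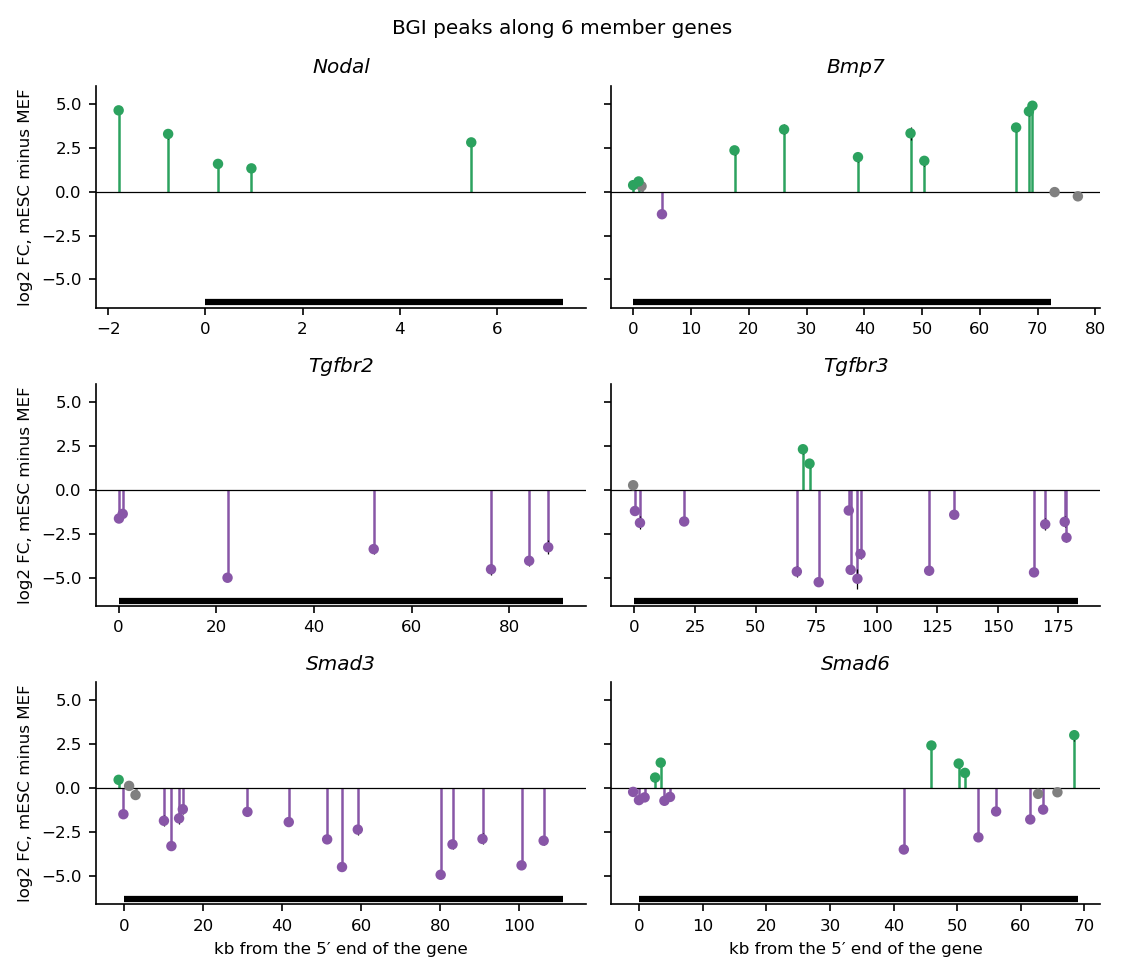
Log2 fold change (mESC over MEF, BGI) of each peak, with bars of 1 SE, against its distance in kb from the 5′ end of the gene for 6 genes. All 5 Nodal peaks lie above 0, all 7 Tgfbr2 peaks below, most Tgfbr3 and Smad3 peaks below, the intronic Bmp7 peaks above except the one at 4.98 kb, and Smad6 peaks on both sides.

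The Id genes code for helix-loop-helix proteins that block differentiation factors and are known BMP targets, and all 4 were more open in MEFs. Id1 summed to 119, 126 and 166 CPM in MEFs and to 62.0, 61.1 and 63.2 CPM in mESCs. The groups were apart though MEF replicate 4 stood above the other MEF libraries, and the log2 fold change was -1.21 (SE 0.0847) on BGI and -1.26 on Illumina. The Id1 promoter peak, part of which is shown above, had 37.7, 37.7 and 45.6 CPM in MEFs and 13.6, 12.9 and 16.1 CPM in mESCs (-1.57, SE 0.113). Id3 was at -0.59 on BGI and -0.52 on Illumina, with 65.6, 61.8 and 69.0 CPM in MEFs and 37.5, 36.4 and 38.3 CPM in mESCs at its promoter peak (-0.87).

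Id2 and Id4 were also more open in MEFs over the gene. Id2 was at -0.47 on BGI and -0.58 on Illumina, but its strongest promoter peak, at 55.7, 51.2 and 60.3 CPM in MEFs and 44.2, 48.2 and 49.0 CPM in mESCs, was at -0.31 and lost its call under scaling to the down-sampled depth on both platforms. A second Id2 peak, centred at -721 bases from a start site, was almost closed in mESCs, with 11.4, 11.1 and 12 CPM in MEFs and 0.946, 1.01 and 0.870 CPM in mESCs (-3.67, SE 0.228). Id4 was at -0.26 on both platforms and lost its call under the same scaling (-0.11 and -0.13) and, on Illumina, without mESC replicate 1 (-0.17). Over a window of 20 kb Id4 turned to 0.08 on BGI and 0.05 on Illumina, without a call on either. The 2 Id peaks more open in mESCs lay downstream of Id3 and Id1: the Id3 peak had 10.8, 11.7 and 16.9 CPM in MEFs and 33.9, 35.2 and 35.9 CPM in mESCs (1.35), and the Id1 peak was at 0.99.

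Among the antagonists, the gene of the BMP inhibitor Noggin was more open in MEFs and that of the Nodal inhibitor Lefty2 in mESCs. Nog summed to 103, 108 and 106 CPM in MEFs and to 53.3, 52.9 and 55.9 CPM in mESCs, groups that did not overlap. Its log2 fold change was -1.04 on BGI and -0.92 on Illumina, all 6 BGI peaks were more open in MEFs, and the downstream peak shown above had 27.3, 27.2 and 23.6 CPM in MEFs and 3.72, 2.54 and 3.85 CPM in mESCs (-3.02). The strongest Nog promoter peak on BGI lost its call without MEF replicate 2 (-0.34) or mESC replicate 3 (-0.32). It also lost it under scaling to the down-sampled depth (-0.23). Lefty2 was 67.1 ± 6.18 CPM in MEFs and 132 ± 3.20 CPM in mESCs, a log2 fold change of 0.91 on BGI and 0.81 on Illumina, with 4 of 5 peaks more open in mESCs. Lefty1 and Lefty2 are similar neighbouring genes, and only uniquely mapped reads were counted. Whether their likeness lowered the counts of either was not tested.

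Lefty1 was not called over the gene (-0.08 on BGI and -0.15 on Illumina), and its peaks went opposite ways. The upstream peak shown above had 0.831, 1.99 and 1.24 CPM in MEFs and 13.1, 10.6 and 10.9 CPM in mESCs (3.02, SE 0.265), and the peaks at -1.45 and -1.31 lay on either side of the gene. The peak at -1.45 also lies in the window of Tmem63a, and over the peaks in no other coding gene's window Lefty1 was more open in mESCs (0.43 on BGI and 0.41 on Illumina). Over peaks within 1 kb of a start site Lefty1 was at 0.88 on BGI and 0.83 on Illumina. Its strongest promoter peak, however, was called more open in MEFs on both platforms. That call was lost under scaling to the down-sampled depth (-0.25 on BGI and -0.21 on Illumina). It was also lost without mESC replicate 5 (-0.31 on both platforms) and, on BGI, without MEF replicate 1 (-0.30). Chrd and Grem1, which code for the BMP inhibitors Chordin and Gremlin, had promoter peaks more open in MEFs on BGI (-0.83 and -0.45) and single peaks elsewhere that were more open in mESCs (3.63 and 2.94). All Chrd peaks on both platforms also lie in the window of Thpo. On Illumina the matched Grem1 promoter peak was not called (-0.31), and its other promoter peak was more open in mESCs (0.37, and 0.41 without a call on BGI). The Grem1 promoter call on BGI did not hold without mESC replicate 5 (-0.37) or under scaling to the down-sampled depth. Grem1 was more open in mESCs over the gene (0.33 and 0.36) but -0.13, without a call, on BGI with a 20 kb window. Chrd was not called (0.19 and 0.09) but was at -0.83 on BGI without the 5 kb extension.

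Promoters leaned towards MEFs as well. On BGI 48 of the 49 genes had a promoter peak, the exception being Bmp5. Taking the strongest one of each gene, 12 were more open in mESCs (25%, against 22.4% of 15128 protein-coding genes with a promoter peak), 28 in MEFs (58.3%, against 43.9%) and 8 were not called. On Illumina, where Gdf5 had none either, 11 of 47 were more open in mESCs (23.4%, against 22.8%) and 29 in MEFs (61.7%, against 45.6%). Under scaling to the down-sampled depth the counts were 13 and 18 on BGI (27.1% and 37.5%, against 27.9% and 29.7% of all), and 12 and 22 on Illumina (25.5% and 46.8%, against 28.0% and 32.7%). All member peaks within 1 kb of a start site counted 23 more open in mESCs and 58 in MEFs out of 104 on BGI (22.1% and 55.8%), against 29.2% and 41.2% of 25899 such peaks of all coding genes. Of the 176 member peaks away from start sites 33.0% were more open in mESCs and 57.4% in MEFs, against 47.0% and 41.9% of 38659 peaks. In 15 of the 28 genes whose strongest BGI promoter peak was more open in MEFs, another peak of the same gene was more open in mESCs (53.6%, near the 58.1% over all such genes). In 7 of the 12 with the opposite promoter call another peak was more open in MEFs (58.3%, against 45.3%). On the lists of reproducible peaks that the authors made for each cell type, 103 BGI member peaks were on both lists, 75 on the mESC list only and 102 on the MEF list only. Receptors and Smads had the largest shares on the MEF list only (50% and 47.8%, against 32.8% of all peaks), and Id genes on both lists (58.3%, against 30.8%).

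Other genes of the pathway were read from a separate list of 55, of which 51 had a peak. Over their summed peaks on BGI 15 were more open in mESCs, 28 in MEFs and 8 were not called (29.4% higher and 54.9% lower, against 35.4% and 40.4% of all protein-coding genes). On Illumina the counts were 15, 26 and 10 (29.4% and 51.0%, against 35.1% and 40.7%). The genes named here were chosen after their values were seen. More open in mESCs on BGI were the Nodal-related ligand Gdf3 (2.398), the anti-Müllerian hormone receptor Amhr2 (1.07), the latent TGF-beta binding protein Ltbp4 (1.06) and Foxh1, the transcription factor that recruits activated Smads (0.74). More open in MEFs were the BMP antagonist Chrdl1 (-2.84), the matrix proteoglycan Dcn (-2.77), the TGF-beta activator Thbs1 (-2.30), fibrillin Fbn1 (-2.29), Fstl1 (-1.82) and the co-receptor Eng (-1.70).

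Matches to the motifs were counted on both strands of the whole peak in 91285 BGI peaks with reference sequence. CAGACA and GTCTAGAC can share bases, as can GGCGCC and GGGCGG (SP/KLF). CAGACA was in 35.4% of member peaks and 39.1% of all peaks, and GTCTAGAC in 0.714% and 0.544%. GGCGCC was in 16.4% of member peaks and 12.3% of all peaks. It was in 22.0% of member peaks more open in MEFs and 3.70% of those more open in mESCs, against 10.9% and 9.18% over all peaks. The median GC content was 54.4% in member peaks and 51.0% in all peaks, and its part in this share was not tested. TGANTCA was in 21.4% of member peaks more open in MEFs and 11.1% of those more open in mESCs, against 35.6% and 18.6% over all peaks. CAAGGTCA was in 8.64% of member peaks more open in mESCs and 1.26% of those more open in MEFs, against 6.41% and 2.27%. The shares of AATNCACA in member and all peaks were 5% and 7.24%, those of ATGCAAAT 2.50% and 3.21%, those of GGAATG 30.4% and 31.7%, those of TGTGGT 30.0% and 31.8% and those of GGGCGG 44.3% and 30.8%. A match is a description of the letters and not a bound site.

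The platforms were compared peak by peak. Of the 280 BGI member peaks 243 had an Illumina peak with at least 50% overlap. The log2 fold changes had the same sign in 241 of them, and the median absolute difference was 0.12. Both platforms called 202 of them, each with the same sign. BGI alone called 7, Illumina alone 7, and neither called 27. Whether the cell type difference depended on the platform was tested as an interaction over all 12 samples on the BGI peak set. Without pairing no member peak and none of the 91354 peaks was called by edgeR, with 2386 of all peaks and 6 member peaks at an unadjusted p under 0.05. DESeq2 called none either, with 1388 of all peaks and 2 member peaks at an unadjusted p under 0.05. The library was also taken as a block, since both platforms read the same libraries. With it edgeR called 0.386% of all peaks and no member peak. At so small a share, no call among 280 peaks is not a result about the members. An unadjusted edgeR p under 0.05 was found in 40 of 280 member peaks and in 12094 of all 91354. The smallest Benjamini-Hochberg adjusted p of edgeR in a member peak was 0.0665. The interaction ranged from -0.87 to 1.23 on the log2 scale over the member peaks without pairing. A p that misses the threshold does not show that the platforms gave equal differences.

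**Figure D5:**
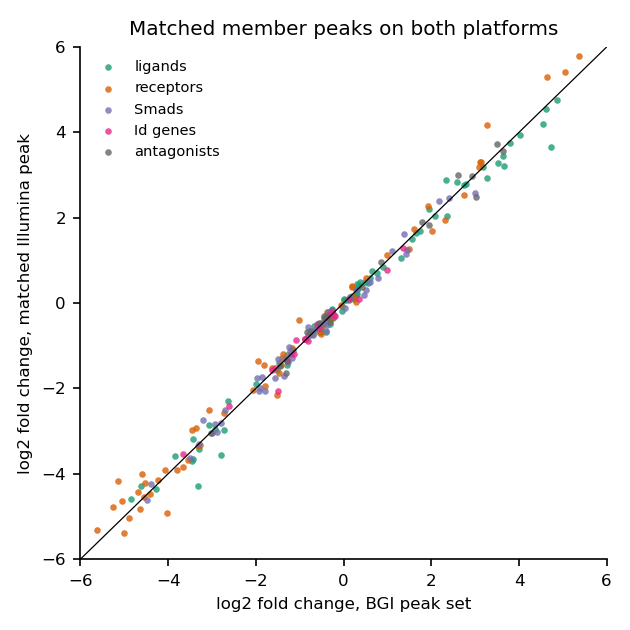
Log2 fold change (mESC over MEF) of the 243 matched member peaks on the BGI (x axis) and Illumina (y axis) peak sets, coloured by role class, with the line of equal values. The points lie along the line, with a median absolute difference of 0.12.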

How the data were processed

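OMNI-ATAC-seq libraries of 3 MEF and 3 mESC samples, each read on BGI and Illumina instruments, gave 12 samples. According to the study's methods, reads of 100 bp (Illumina reads trimmed from 150 bp) were aligned to GRCm38/mm10 with Bowtie2. Duplicates, mitochondrial reads and reads of low mapping quality were removed, and samples were down-sampled to 60 (MEF) or 45 (mESC) M reads. The authors called peaks with MACS2 in each sample, and the deposited peak files hold each summit's fold enrichment and the −log10 of its p-value, of which the fold enrichment served only to check the columns. Fixed-width peaks found in at least 2 samples made up the deposited peak lists, of which only positions were used. The authors counted reads in these peaks with subread, and the deposited counts are raw. The down-sampled read number was thus the same within a cell type only, and reads in peaks differed between libraries.

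The columns without a platform suffix were taken as Illumina, since the ratio of BGI to unsuffixed counts followed the ratio of BGI to Illumina enrichment in the peak files of the same library (Spearman's rho over peaks 0.756 to 0.799, a description). Peaks were assigned to genes with GENCODE M21, and a promoter peak lay within 1 kb of an annotated start site. edgeR 4.0.16 (R 4.3.3; quasi-likelihood test, TMM factors, Benjamini-Hochberg adjustment over all peaks or genes, threshold 0.05) compared mESC with MEF within each platform. Its default filter removed no peak. SEs are the absolute log2 fold change over the square root of F. CPM carry no TMM factor, so their ratios differ slightly from the fitted fold changes. Gene values are fits on counts summed over a gene's peaks. Scripts used Python 3.11.15 with pandas 2.3.3, and were tested on simulated data.

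The interaction of platform and cell type was fitted without a block, and with the library as one. Samples of the same library deviated together on both platforms (r 0.366 to 0.579 over peaks, against -0.396 to -0.009 for different libraries), and the labels name the shared libraries. The alternatives were DESeq2 1.42.0 (the study's tool), RLE factors, scaling to the down-sampled depth, filters, leaving out each library, the other platform's counts, a minimum change and other gene windows. Named peaks were each gene's strongest promoter peak and the 3 largest differences in each direction and class called on both platforms. Other single peaks were chosen after their values were seen. A marker list and a single peak are not reported here. The members and lists were chosen with earlier results of these data known. Counting intervals are not given. The p-values test the difference between groups of 3 libraries, against a variance that edgeR estimates from those libraries with help from all peaks or genes.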

Additional observations from a re-analysis of the deposited data

How the results depend on the processing

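Of 69 named BGI peaks called, 11 lost their call without some library, as did 4 of 40 on Illumina, and of the gene sums 4 of 38 and 2 of 37. Scaling to the down-sampled depth moved the BGI median of all peaks from -0.08 to 0.06, and the Illumina median from -0.03 to 0.09, so changes are relative to that choice. The share of member calls that were more open in mESCs then rose from 33.8% to 39.0% (BGI) or from 31.4% to 34.9% (Illumina). No paired analysis was possible for mESC against MEF because each library holds 1 cell type. Replicate number 1 occurs in both cell types, but the labels name no source that the 2 samples share. In the remaining alternatives the cause of a change was not tested, other than that other windows hold other peaks.

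Under scaling to the down-sampled depth the BGI medians were -0.33 for all members, 0.30 for ligands, -1.05 for receptors, -0.75 for Smads and -0.21 for antagonists, and the Illumina medians -0.38, 0.20, -0.82, -0.62 and -0.21. With a log2 fold change above 1 required, 154 of 280 BGI member peaks were called (57 higher and 97 lower in mESCs). Of all 91354 BGI peaks 52384 were called (27482 higher). On Illumina 139 of 273 member peaks were called (48 higher, 91 lower), and 49087 of all 87027 peaks (26795 higher). With a 20 kb window, which holds more peaks, 135 BGI and 122 Illumina peaks were higher in mESCs, counts without a background for that window. The medians of all members and receptors were then -0.38 and -0.78 on BGI and -0.35 and -0.68 on Illumina, where antagonists were at -0.24. Without extension the BGI medians of receptors and Smads were -1.38 and -1.09, and the Illumina receptor median -1.19. Over peaks in no other coding gene's window, BGI ligands and receptors were at 0.30 and -1.37, and Illumina receptors and Smads at -1.19 and -0.64. With at least 50% of the peak in the window Illumina receptors were at -0.85. Counted by the other platform on the Illumina peaks, receptors and Smads were at -1.05 and -0.82. Within 1 kb of a start site 81 BGI peaks were called (23 higher, 58 lower), with medians of -0.38 for all members, 0.041 for ligands, -0.30 for receptors and -0.60 for Smads. On Illumina 86 were called (24 higher, 62 lower), with -0.34, -0.33 for receptors and -0.525 for Smads.

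Gene sums that turned direction did so with the window. With 20 kb (BGI and Illumina) these were Bmp3 (-0.97, -0.81), Gdf9 (-0.091, -0.18), Gdf10 (0.19, 0.25), Id4 (0.082, 0.045), Chrd (-0.20, -0.20) and Lefty1 (0.26, 0.29), and on BGI Grem1 (-0.13). Over peaks in no other window they were Tgfb1 (2.77, 2.51), Gdf5 (-3.29, -3.42), Smad9 (1.11, 1.21) and Lefty1 (0.43, 0.41). Within 1 kb of a start site they were Inhbb (-0.11, -0.17), Bmp6 (0.46, 0.44), Smad7 (0.10, 0.10), Chrd (-0.83, -0.44) and Lefty1 (0.88, 0.83), and on BGI Gdf5 (-0.40), Gdf11 (-0.56) and Grem1 (-0.090). Without extension they were Chrd (-0.83, -0.67), Gdf5 on BGI (-0.40) and Bmp4 on Illumina (-0.18). Bmpr1a on Illumina was at 0.26 without extension, with at least 50% of the peak in the window and over peaks in no other window. Some of these turned values were not called. With 20 kb they were Id4 on both platforms and Gdf9, Gdf10 and Grem1 on BGI. Within 1 kb of a start site they were Inhbb and Smad7 on both platforms and Gdf5 and Grem1 on BGI. Without extension it was Gdf5 on BGI.

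Leaving out 1 library at a time gave 225 to 235 called member peaks on BGI (76 to 82 higher, 147 to 155 lower) and 217 to 229 on Illumina (69 to 70 higher, 148 to 159 lower). Of all peaks 74108 to 76404 were then called on BGI and 71060 to 73230 on Illumina. Called genes numbered 36 to 39 on BGI (11 to 13 higher, 24 to 26 lower) and 36 to 41 on Illumina (9 to 10 higher, 27 to 31 lower). The BGI medians ranged from -0.49 to -0.44 for all members, 0.13 to 0.23 for ligands, -1.24 to -1.10 for receptors, -0.99 to -0.82 for Smads, -0.98 to -0.78 for Id genes and -0.35 to -0.28 for antagonists. The Illumina medians ranged from -0.56 to -0.49, -0.00027 (without mESC replicate 3) to 0.10, -1.01 to -0.88, -0.80 to -0.67, -0.97 to -0.79 and -0.44 to -0.28.

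The interaction called 0 member peaks with the library as a block, as it did without, and 0 with DESeq2, RLE factors or the Illumina peak set. Leaving out 1 library gave 0 to 0 without the block and 0 to 2 with it, the 2 being the Smad5 promoter peak and a Smad6 peak without MEF replicate 4. On the Illumina peak set with the block, 0 were called, with 47 of 273 member peaks and 12369 of all 87027 at an unadjusted p under 0.05. The last 2 settings with the block were chosen after seeing the data. With the block on the BGI set 40 of 280 member peaks and 12094 of all peaks had an unadjusted p under 0.05. Over all peaks the block raised the calls from 0 to 353 of 91354, none of them a member peak.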
